A study of Homo sapiens with 12 samples.

Results

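The scrambled subline of 22Rv1 prostate cancer cells supplied 4 of the 12 arrays of the series, 2 from cells given doxycycline (22RV1_shScr-Dox) and 2 from cells without it (22RV1_shScr), and they were chosen by those labels alone. 22Rv1 is a human prostate carcinoma line, from an androgen-independent xenograft, that carries the androgen receptor. Every subline of the series holds a hairpin that doxycycline switches on, so the scrambled subline carries an inducible control hairpin in both of its groups, and the groups differ by doxycycline and by whatever hairpin it induces. The other 8 arrays come from sublines with hairpins HNF4Gsh1 and HNF4Gsh2 against HNF4G, each with and without doxycycline, 2 arrays a group. Per the series' design text, cells received doxycycline or a vehicle that is not named, for 3 days, and the treatment text of the arrays without doxycycline does not describe a vehicle. Per the labels, cells grew in RPMI with serum and 500 ng of total RNA was labelled from an oligo(dT) primer for Illumina bead arrays. Each hairpin is represented by 1 subline, and nothing in the labels says whether replicates are separate cultures, so the p-values measure the spread between arrays, which may be technical. Doxycycline and hairpin induction cannot be told apart in this subline, because it has no group with only one of them.

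Doxycycline is a tetracycline. Tetracyclines block the small subunit of the bacterial ribosome, and in animal cells they also slow translation by the related ribosome of mitochondria, with effects on oxidative phosphorylation, glycolysis and the integrated stress response known from several human lines. Tetracyclines also bind divalent metal ions and inhibit matrix metalloproteinases. In an inducible system the drug releases a tet repressor, or recruits an activator, at the promoter of the hairpin. The hairpin is then cut by Dicer and loaded into Argonaute proteins, the same machinery that handles microRNAs. A scrambled hairpin is designed to match no transcript, and its response to doxycycline is the background against which responses of other hairpins are read.

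Of 47323 probes, 19172 had a detection p below 0.01 on 2 or more of the 12 arrays, and 11164 named genes were tested, each by its brightest kept probe. The 2 arrays with doxycycline had median raw intensities of 92.5 and 101 and detected 14959 and 16827 probes, against medians of 103 and 98.7 and 16497 and 15783 probes in the 2 arrays without it. Medians of the 8 hairpin arrays ran from 97.2 to 108 with 16392 to 18293 probes detected, so doxycycline replicate 1 of the scrambled subline was the dimmest of the 12 and detected the fewest probes. Replicates correlated at 0.989 in both groups over the tested genes. The standard deviation of the replicate difference was 0.312 with doxycycline and 0.311 without it, against 0.272 to 0.305 in the hairpin groups. The spread of the fit over all 6 groups therefore rests partly on groups with tighter replicates. Of 11 measured luminal prostate markers, 10 were detected on all 4 arrays, and 1 of 8 basal markers was measured and not detected on all 4. Of 7 measured neuroendocrine markers 5 were detected on all 4 arrays, of 4 blood and immune markers 2 (HBA1 and CD68), and of 5 fibroblast and stroma genes 3 (ACTA2, TAGLN and VIM), with LUM on 3 arrays and DCN on none. Summed levels of the luminal list were 13.8 to 13.9 with doxycycline and 13.8 without it, as log2 of summed intensity. Summed levels of 5 measured fibroblast and stroma genes were 9.19 to 9.36 with doxycycline and 9.51 to 9.61 without it, with changes of -0.86 for LUM (adjusted p = 0.131, limma), -0.40 for VIM, -0.11 for DCN, 0.11 for ACTA2 and 0.39 for TAGLN. Their part in the results below was not tested. Values below are log2 of background-corrected, quantile-normalised intensity; a change is the mean with doxycycline minus the mean without it; ± after a change is the standard error of limma's fit over all 6 groups; p-values are adjusted by Benjamini-Hochberg over the 11164 genes, and a gene passed at 0.05.

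HNF4G, the nuclear receptor that the other hairpins target, checks only for a swap with arrays of induced HNF4G hairpins, since a scrambled hairpin should leave it in place. It cannot check which scrambled arrays had doxycycline. HNF4G read 5.81 and 6.19 with doxycycline and 6.35 and 6.13 without it. The groups overlapped, and the change was -0.24 ± 0.18 with a 95% interval of -0.62 to 0.14 (adjusted p = 0.699, limma). In the hairpin sublines its change was -1.46 for HNF4Gsh1 and -1.92 for HNF4Gsh2, and the scrambled change differed from their mean (adjusted p = 0.00803, limma). No probe reads the scrambled hairpin itself, so its induction was not measured here.

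In the scrambled subline 3 of 11164 genes fell with doxycycline and 0 rose, 0.0269% of all genes tested. The 3 were ANKRD52, a regulatory subunit of protein phosphatase PP6, PLPPR2, a brain-enriched relative of the lipid phosphate phosphatases, and MAPRE3, which encodes EB3, a protein that tracks growing microtubule ends. Their changes were -1.81, -1.34 and -1.24 on the log2 scale. In a bulk sample, fewer cells expressing a gene and less of its RNA per cell cannot be told apart. Of the 3, RefSeq's promoter table (GRCh38.p14, windows of 300 bases that end shortly after a start) holds starts for ANKRD52 and MAPRE3, and the windows of ANKRD52 and of the upstream MAPRE3 start are shown because both genes passed the test. Each is given 5′ to 3′ on the gene's strand, ANKRD52 at chr12:56258335-56258634 on the minus strand and MAPRE3 at chr2:26970387-26970686 on the plus strand, with capitals at the GC box GGGCGG or its reverse complement.
ANKRD52: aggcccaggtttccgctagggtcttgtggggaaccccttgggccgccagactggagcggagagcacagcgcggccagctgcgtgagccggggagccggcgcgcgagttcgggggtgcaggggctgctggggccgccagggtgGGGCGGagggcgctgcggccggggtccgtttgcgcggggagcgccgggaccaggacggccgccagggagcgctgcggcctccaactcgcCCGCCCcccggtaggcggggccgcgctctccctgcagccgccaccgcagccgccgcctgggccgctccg
MAPRE3: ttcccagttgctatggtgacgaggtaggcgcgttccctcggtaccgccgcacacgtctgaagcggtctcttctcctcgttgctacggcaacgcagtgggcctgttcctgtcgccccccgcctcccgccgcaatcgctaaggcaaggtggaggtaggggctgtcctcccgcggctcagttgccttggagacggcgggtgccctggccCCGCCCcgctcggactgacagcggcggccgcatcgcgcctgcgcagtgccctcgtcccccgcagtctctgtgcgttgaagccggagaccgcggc
The ANKRD52 window holds 2 GC boxes and 38 CpG sites at 78.7% GC. The MAPRE3 window holds 1 GC box and 35 CpG sites at 69.3% GC, and a second MAPRE3 start, at chr2:27014504-27014803, holds 4 CpG sites, 1 CCAAT box and no GC box. Over 35116 promoter windows of the same length, both strands searched, 45.0% hold GGGCGG and 34.6% hold CCAAT, and the median is 14 CpG sites and 58.7% GC. TATAAA, in 11.5% of all windows, is in none of the 3. These are descriptions of the letters in the windows and not of any factor bound there.

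ANKRD52, on chromosome 12, read 4.93 and 5.52 with doxycycline, against 7.02 and 7.05 without it. Both doxycycline arrays were more than a log2 unit below both arrays without it, and the groups did not overlap. The fall was -1.81 ± 0.19 (adjusted p = 0.00177, limma), and the probe was detected on 1 of the 2 doxycycline arrays and on both of the others. PP6 with ANKRD52 is known to remove phosphates from AGO2, which lets Argonaute bind new targets. PPP6C, the catalytic subunit of the same complex, stood at 0.11 (adjusted p = 0.868). In the hairpin sublines ANKRD52 changed by 0.14 and 0.12, neither past the threshold.

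PLPPR2, on chromosome 19, read 5.47 and 5.78 with doxycycline, against 6.98 and 6.96 without it. The arrays without doxycycline were nearly level with each other and the groups did not overlap. The fall was -1.34 ± 0.20 (adjusted p = 0.0312, limma), again with detection on 1 of 2 doxycycline arrays. MAPRE3, on chromosome 2, read 5.44 and 5.11 with doxycycline, against 6.44 and 6.59 without it. Its probe was not detected on either doxycycline array, so the fold is a bound at the main settings. There MAPRE3 was at least 2.28-fold lower with doxycycline (adjusted p = 0.0255, limma), and its measured change was -1.24 ± 0.17. A bound of this kind sets the mean of the detected group against the lowest signal counted as detected on each array of the other. Here and below, such a bound depends on the background correction and carries no sampling error, so it is not a minimum across settings.

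Leaving out the dimmest array, doxycycline replicate 1, left 1 gene called, and leaving out replicate 2 of the cells without doxycycline left 0 (adjusted p = 0.0562 for ANKRD52). A fit of the 4 scrambled arrays alone also called 0, with 853 genes at an unadjusted p under 0.05, while a moderation that follows intensity called 36.

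The next 5 genes by p shared an adjusted p of 0.0513 and did not pass. In 12 alternative processing settings AKR1C2, DYNLRB1, EIF2S2 and GALNT1 passed in 7 each and RAB8B in 6. ANKRD52 passed in 10 of the 11 settings that tested it, MAPRE3 in 7 of 11 and PLPPR2 in 6 of 11. The size of these falls also moved with the setting. ANKRD52 ran from -1.81 to -0.76, PLPPR2 from -1.42 to -0.60 and MAPRE3 from -1.31 to -0.47. AKR1C2, an aldo-keto reductase that inactivates dihydrotestosterone, read 9.18 and 9.71 with doxycycline, against 10.69 and 10.54 without it, a change of -1.17 ± 0.19. Its groups did not overlap. Both HNF4G hairpins had larger changes of the same sign, -1.59 and -1.86, from a lower start. Without doxycycline AKR1C2 read 8.41 and 8.20 in the HNF4Gsh1 subline and 8.65 and 8.58 in the HNF4Gsh2 subline. These values lie below both scrambled doxycycline arrays. AKR1C2 has close paralogs, and signal from them cannot be separated here. DYNLRB1, a light chain of the dynein motor, read 10.03 and 9.83 with doxycycline, against 10.92 and 10.98 without it, a change of -1.02 ± 0.17. Its groups did not overlap, and in the hairpin sublines it stood at 0.08 and -0.09. EIF2S2, the beta subunit of initiation factor eIF2, read 7.31 and 7.39 with doxycycline and 8.19 and 8.36 without it, a change of -0.92 ± 0.15. GALNT1, a transferase that starts mucin-type O-glycans, read 6.75 and 6.61 with doxycycline, against 7.72 and 7.46 without it, a change of -0.91 ± 0.15. RAB8B, a small GTPase of membrane traffic, was the one of the 5 that was higher: it read 7.63 and 7.60 with doxycycline, against 6.78 and 6.65 without it, a change of 0.90 ± 0.15. In the HNF4Gsh1 and HNF4Gsh2 sublines EIF2S2 stood at 0.07 and -0.64, GALNT1 at 0.28 and 0.30 and RAB8B at 0.18 and -0.50. In each of these genes the 2 arrays of a scrambled group lay closer to each other than to any array of the other scrambled group.

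**Figure D1:**
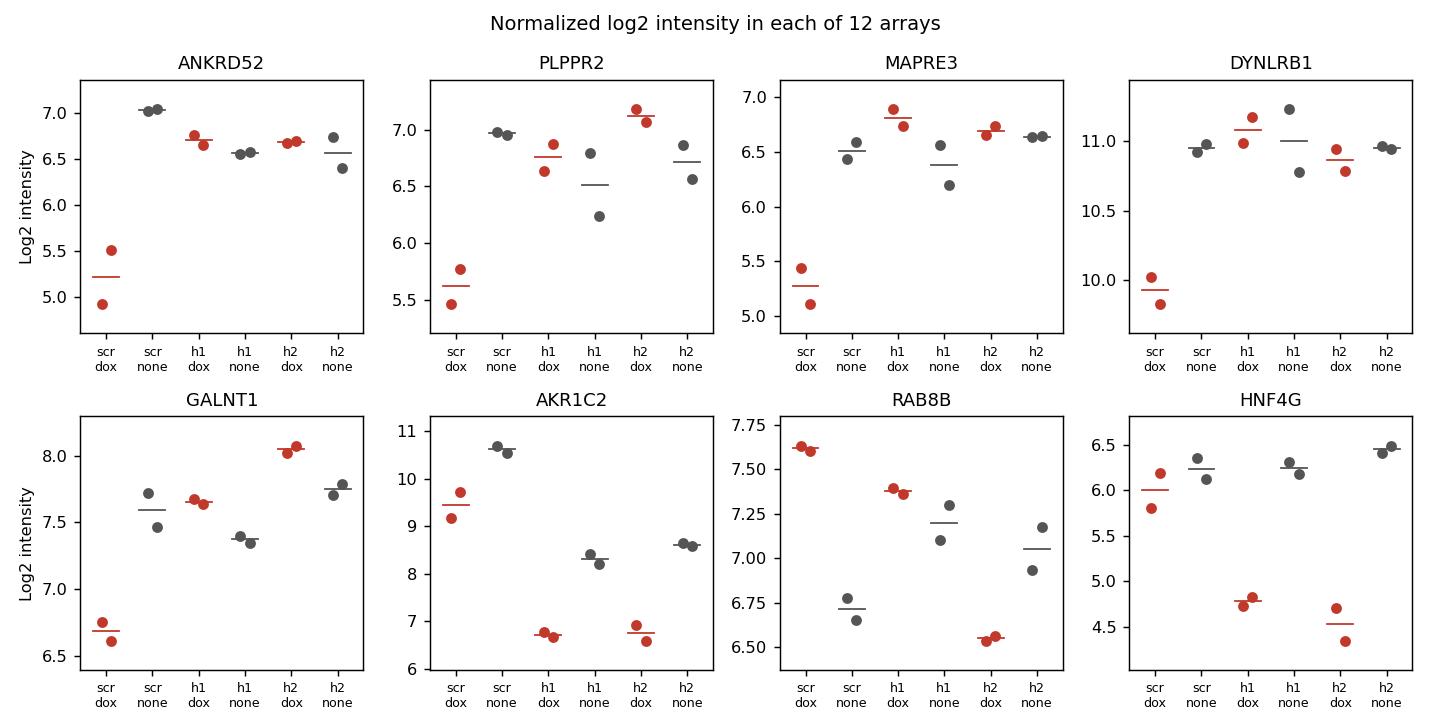
Normalised log2 intensity on each of the 12 arrays for 8 genes, each panel with its own vertical scale that does not start at 0; points are arrays, lines are group means, red is with doxycycline (dox) and grey without (none), scr is the scrambled subline and h1 and h2 are the HNF4Gsh1 and HNF4Gsh2 sublines. ANKRD52 reads 4.93 and 5.52 on the scrambled doxycycline arrays against 7.02 and 7.05 without doxycycline, while HNF4G is low only where its own hairpins were induced.

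Among the 12 genes with the smallest p on each side, the falls spanned -1.81 to -0.77 and 7 of 12 were detected on all 4 arrays. The rest of the lower side read as follows, none past the threshold: SLC1A3, a glutamate transporter, -0.96 (adjusted p = 0.0819), CEP57, a centrosome protein, -0.97 (adjusted p = 0.102), SLITRK5, a neuronal membrane protein, -0.88, ZNF212, a zinc finger protein, -0.81, and RAB5C, a GTPase of early endosomes, -0.77. RAB5C stood at 0.15 in the HNF4Gsh1 subline and -0.56 in the HNF4Gsh2 subline. The 12 on the higher side spanned 0.585 to 1.04, and 9 of 12 were detected on all 4 arrays. In the mean hairpin response 7 of the 12 falls were also below 0, and 4 of the 12 rises were also above 0. NECTIN3, a cell adhesion molecule, read 7.39 and 7.56 with doxycycline, against 6.74 and 6.60 without it, a change of 0.81 ± 0.15 (adjusted p = 0.0968, limma). LYRM7, an assembly factor of respiratory complex III, read 9.03 and 9.17 with doxycycline, against 8.26 and 8.49 without it, a change of 0.73 ± 0.15 (adjusted p = 0.131, limma). Neither gene's groups overlapped on these probes. Another kept probe of NECTIN3 stood at 0.34. Another kept probe of LYRM7 stood at 0.13, and there the groups overlapped.

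Those 12 on the higher side held 3 small nuclear or nucleolar RNAs, none past the threshold. SCARNA23, a small Cajal body RNA, read 6.05 and 5.53 with doxycycline, against 4.90 and 4.58 without it, a change of 1.04 ± 0.20 (adjusted p = 0.113, limma). It was detected on both doxycycline arrays and on neither array without it. SNORA12, which guides pseudouridylation, stood at 0.84, between 0.57 and 1.11 when each array was left out. RNU4-1, a copy of the U4 spliceosomal RNA, was detected with doxycycline only and was at least 1.28-fold higher (adjusted p = 0.225, limma). By symbol, a tally made after these values were seen, 100 such RNAs were measured and 0 passed. Their median change was 0.09 (all genes, -0.01), beside -0.01 and -0.12 in the hairpin sublines, and 17 were higher and 2 lower at an unadjusted p under 0.05 (all genes, 4.41% and 5.23%). In 30 of them the groups did not overlap on the higher side and in 10 on the lower (all genes, 18.2% and 20.1%), and 49 were detected on all 4 arrays. Such RNAs normally lack a poly(A) tail and labelling began from oligo(dT), so what their probes captured is uncertain. The other higher genes were UNC79, of the sodium leak channel complex, at 0.70, ADAM10, a membrane protease, at 0.66, ZBTB10, a zinc finger protein, at 0.99, PCDH10, a protocadherin detected with doxycycline only, at 0.59, TSNAX at 0.61 and TTC14 at 0.69. Of the 24 genes, 7 had another kept probe. Of those 9 probes 7 had the same sign and 2 the opposite, for TSNAX (-0.31) and TTC14 (-0.24). ANKRD52, PLPPR2 and MAPRE3 had no other kept probe, so each of these calls rests on a single probe. With every kept probe tested as a probe, 6 of 19172 passed (0.0313%), among them a second probe of DYNLRB1.

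Most changes were small. The median change was -0.01, the standard deviation over genes 0.25, and 94.8% of genes lay within 0.5 log2 units of 0. A total of 8 genes were under -1 and 1 was over 1. The standard deviation of the change was 0.281 for HNF4Gsh1 and 0.304 for HNF4Gsh2, with 118 (1.06%) and 231 (2.07%) genes past the threshold. At an unadjusted p under 0.05 the scrambled subline had 1076 genes, 9.64% of those tested, of which 492 were higher (4.41%) and 584 lower (5.23%). Dim genes spread most: over 4 equal bins of genes, from dim to bright, the standard deviation was 0.307, 0.275, 0.213 and 0.187, and the share with an unadjusted p under 0.05 was 13.1%, 12.9%, 7.49% and 5.02%. Groups did not overlap for 2028 genes higher with doxycycline (18.2%) and 2247 lower (20.1%). ACTB stood at 0.03, B2M at 0.08 and GAPDH at -0.26, with 95% intervals of -0.27 to 0.34, -0.25 to 0.41 and -0.60 to 0.08. With arrays scaled to the same median in place of quantiles, the median gene moved by -0.16 and ACTB and B2M turned to -0.0298 and -0.0926.

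**Figure D2:**
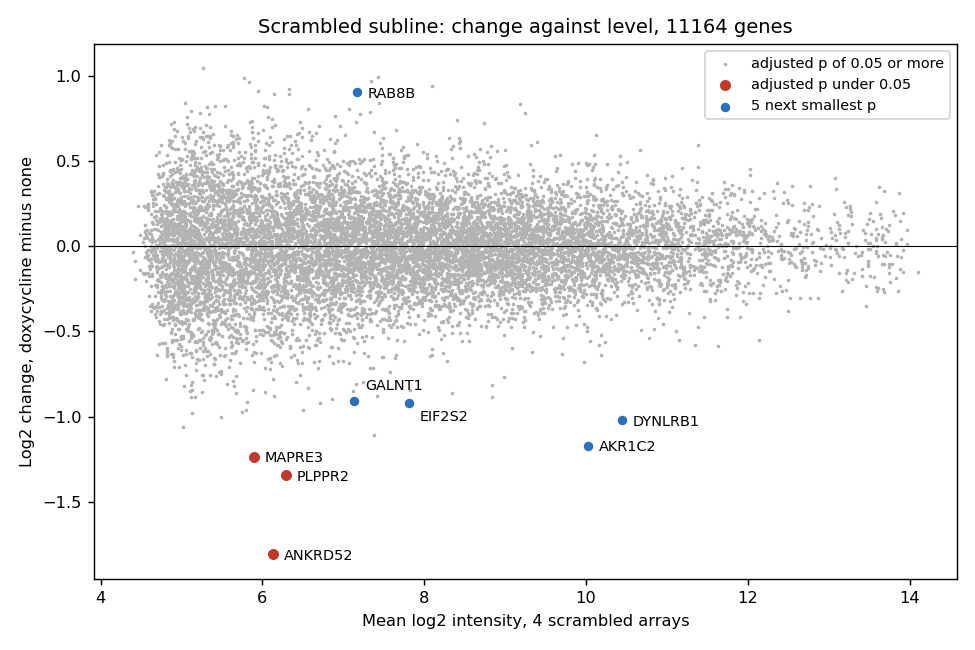
Log2 change in the scrambled subline (doxycycline minus none, vertical) against the mean log2 intensity over its 4 arrays (horizontal) for 11164 genes; red points passed an adjusted p of 0.05 and blue points are the 5 with the next smallest p. The cloud narrows with level, and the 3 genes that passed, ANKRD52, PLPPR2 and MAPRE3, lie below -1.

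Detection gave a second view of the dim genes. With doxycycline 47 genes (0.421%) were detected on both arrays and on neither array without it, and 69 (0.618%) the other way round. Of the genes seen only with doxycycline, the largest bounds were at least 1.48-fold higher for RNF170, a ubiquitin ligase of the endoplasmic reticulum, 1.43-fold for SCARNA23, 1.41-fold for GRB10, an adaptor of the insulin receptor, and 1.40-fold for SPATA13. PTCH1, the Hedgehog receptor, stood at 0.59 with a bound between those of SCARNA23 and GRB10. Of the genes seen only without doxycycline, MAPRE3 had the largest bound, followed by ZNF687 at 1.59-fold lower or more, MYBBP1A, a nucleolar protein, at 1.46-fold or more, and GALNT7, another O-glycan transferase, at 1.43-fold or more. The intestinal cadherin CDH17 was also seen only without doxycycline. Apart from MAPRE3 none of these passed the test, and the doxycycline group holds the array with the fewest detected probes.

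Genes of processes that doxycycline is known to touch were read from lists, and each count of calls stands against 0.0269% of all genes. Of 28 measured proteins of the mitochondrial ribosome 0 passed, the median change was -0.05 (all genes, -0.01), and 1 had an unadjusted p under 0.05, MRPS5 at 0.37. Of 32 nuclear-encoded respiratory chain subunits 0 passed and the median was -0.02, with SDHC at 0.40 and ATP5F1B, the beta subunit of ATP synthase, at 0.31. Transcripts of mitochondrial DNA were not analysed here. Of 20 genes that maintain and express mitochondrial DNA 0 passed, with TFB1M, a methyltransferase of mitochondrial ribosomal RNA, at 0.57 and POLRMT, the mitochondrial RNA polymerase, at -0.34. Of 16 mitochondrial chaperones and proteases 0 passed, with the protease subunit CLPX at -0.49 and the import subunit TIMM17A, detected on 1 array with doxycycline and none without it, at 0.47. The integrated stress response list had 28 measured genes, 0 past the threshold and a median of -0.06. Its regulator ATF4 stood at -0.30 and its target DDIT4 at -0.30. With the mean of all probes of a gene ATF4 stood at 0.0226.

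Hypoxia and glycolysis genes numbered 27 with a median of -0.09, and 0 passed. At an unadjusted p under 0.05, 2 were higher and 4 lower (all genes, 4.41% and 5.23%). ADM, the vasodilator adrenomedullin, read 7.38 and 6.94 with doxycycline, against 7.77 and 7.86 without it, a change of -0.65 ± 0.17 (adjusted p = 0.255, limma). ANKRD37, another hypoxia-inducible gene, was not detected on either doxycycline array, and was at least 1.10-fold lower there (adjusted p = 0.255, limma). The demethylase KDM3A stood at 0.63. The list had members on both sides. Of 17 listed matrix metalloproteinases and inhibitors 6 were measured, and all 6 were below 0, against 50.9% of all genes. Their median was -0.43, beside -0.14 in the HNF4Gsh1 subline and 0.10 in the HNF4Gsh2 subline. The lowest in the scrambled subline was MMP16, a membrane-anchored protease, at -0.69 (adjusted p = 0.225, limma). MMP11 was not detected on either doxycycline array, and was at least 1.06-fold lower there (adjusted p = 0.404, limma). The inhibitor TIMP2 read 4.97 and 5.87 with doxycycline, against 6.0 and 5.83 without it. Its groups overlapped, it was detected on 1 of the 2 doxycycline arrays, and its change of -0.50 lay between -0.94 and -0.05 when each array was left out. Metal handling gave 0 of 20 metallothioneins and zinc transporters past the threshold, with the zinc-sensing factor MTF1 at 0.53, and 0 of 13 iron genes, with the iron importer SLC11A2 at 0.53 and the ferritin light chain FTL at 0.35.

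The machinery that processes the hairpin had 17 measured genes, of which 0 passed. Its median was 0.04, and 5 of 17 were higher and 0 lower at an unadjusted p under 0.05 (all genes, 4.41% and 5.23%). AGO2, the Argonaute that cuts targets, read 8.61 and 8.69 with doxycycline, against 8.14 and 7.98 without it, a change of 0.59 ± 0.15 (adjusted p = 0.239, limma). DICER1, the nuclease that cuts hairpins, read 8.03 on each doxycycline array, against 7.17 and 7.72 without doxycycline, a change of 0.58 ± 0.17 (adjusted p = 0.292, limma). TSNAX, a subunit of the complex that clears the passenger strand, read 9.65 and 9.75 with doxycycline, against 9.08 and 9.09 without it. On the tested probes the groups overlapped in none of these 3 genes. The other kept probe of TSNAX stood at -0.31, and there the groups overlapped. AGO2 stood at 0.31 with HNF4Gsh1 and -0.58 with HNF4Gsh2, and TSNAX at 0.37 and -0.57. The interferon response, which double-stranded RNA can induce, had 27 measured genes, 0 past the threshold and a median of 0.07. Its double-stranded RNA sensor EIF2AK2 stood at 0.52, where 1 array without doxycycline lay close to the doxycycline arrays, and its regulator IRF1 at -0.47.

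Growth and stress lists held small values. Of 52 cell cycle genes 0 passed, the median was -0.07 and 1 had an unadjusted p under 0.05, the phosphatase CDC25C at -0.36. Of 21 p53 targets 0 passed, and 17 were above 0 (all genes, 49.1%). The median was 0.14, beside -0.18 in the HNF4Gsh1 subline and 0.19 in the HNF4Gsh2 subline. ZMAT3 read 12.32 and 12.19 with doxycycline, against 11.83 and 11.77 without it, a change of 0.45 ± 0.17 (adjusted p = 0.416, limma). The cell cycle inhibitor CDKN1A read 10.76 and 10.75 with doxycycline, against 9.92 and 10.61 without it, so its 0.49 rests largely on 1 array. SESN1, a stress-induced sestrin, stood at 0.38. Of 25 cholesterol and fatty acid genes 0 passed, with the master factor SREBF1 at -0.41, the demethylase CYP51A1 at -0.44 and mevalonate kinase MVK at -0.40. Of 23 unfolded protein and heat shock genes 0 passed, with the chaperones PDIA4 at -0.42 and DNAJB1 at -0.43. Of 35 cytosolic ribosomal proteins, 16 histones and 19 NRF2 targets 0 passed, with medians of -0.04, 0.06 and -0.01.

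Lists built around the genes that fell, and chosen with those falls known, held no other call, and their counts support nothing about the lists. Of 20 PP6 and PP2A phosphatase genes only ANKRD52 passed, the median was -0.11, and PPP6R2, another PP6 regulatory subunit, stood at 0.65. Of 20 microtubule end proteins only MAPRE3 passed, the median was -0.11, and 4 had an unadjusted p under 0.05 on the lower side (all genes, 5.23%), among them the rescue factor CLASP1 at -0.59 and CLIP2 at -0.49. Of 12 lipid phosphate phosphatases and relatives only PLPPR2 passed, with the sphingosine phosphatase SGPP1, detected on 1 array with doxycycline and none without it, at 0.47. Of 12 O-glycosylation genes 0 passed, with GALNT1 the lowest at -0.91.

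Genes of prostate and gut identity were read because HNF4G is known to drive gut genes in these cells. Of 21 androgen-activated genes 0 passed and the median was 0.04, with 5 higher and 0 lower at an unadjusted p under 0.05 (all genes, 4.41% and 5.23%). ZBTB10 read 7.88 and 7.96 with doxycycline, against 6.55 and 7.31 without it, and its change of 0.99 lay between 0.61 and 1.37 when each array was left out. The kinase CAMKK2 stood at 0.63 and SPOCK1 at 0.45. Of 17 genes of glucuronidation and steroid metabolism 0 passed, with AKR1C2 the lowest, the dehydrogenase HSD17B10 at -0.59 and the transferase UGT1A1 at 0.68. Of 11 intestinal and gastric genes 0 passed, the median was -0.30, and 3 were lower and 0 higher at an unadjusted p under 0.05 (all genes, 5.23% and 4.41%). These were CDH17, the microvillar actin bundler VIL1 at -0.64 and the brush border myosin MYO1A at -0.44. CDH17 read 5.24 and 4.95 with doxycycline, undetected on both arrays, against 6.29 and 5.38 without it. Its measured change of -0.74 lay between -1.19 and -0.28 when each array was left out. In the hairpin sublines the median of this list was -1.12 and -1.24.

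**Figure D3:**
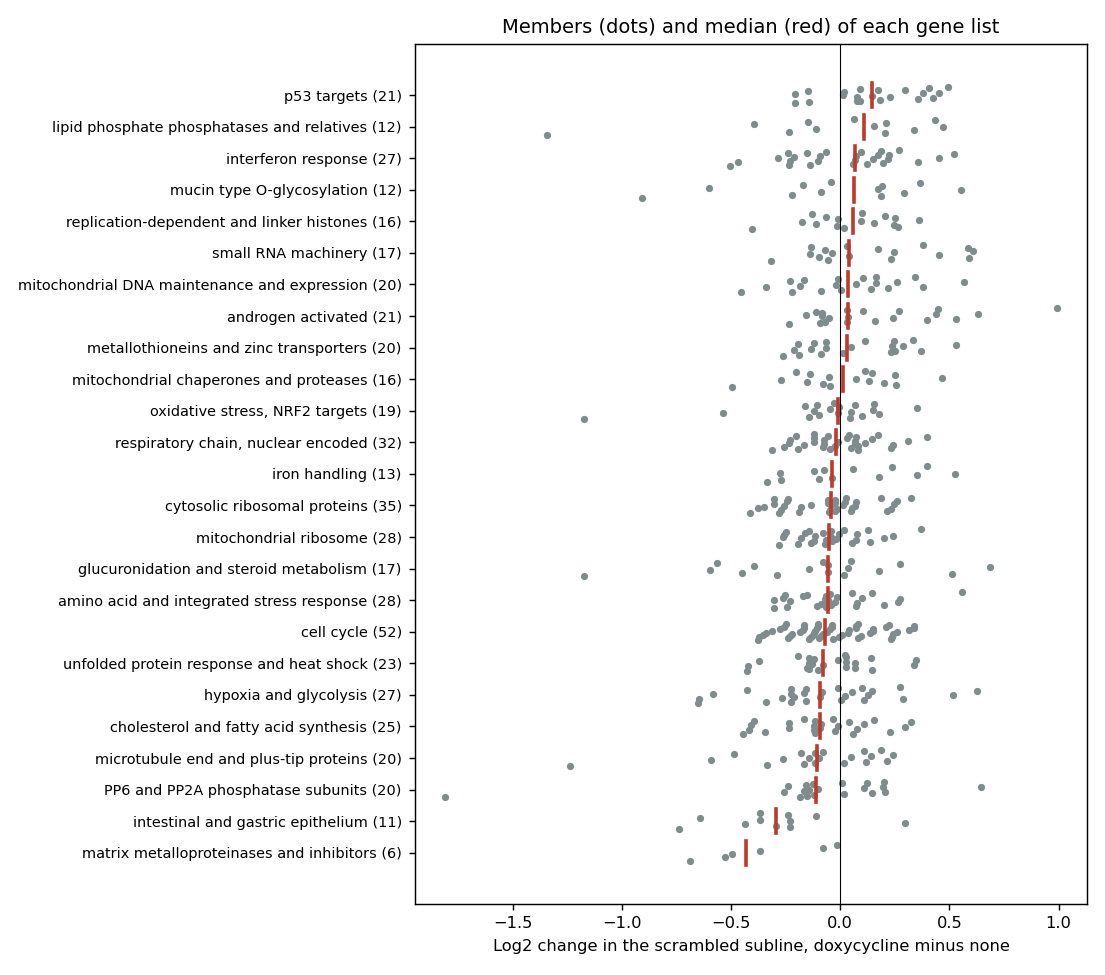
Log2 change in the scrambled subline (doxycycline minus none) for each measured member (grey dots) of 25 gene lists, with the list's median in red and the number of measured members in brackets. Medians lie between -0.43 for the matrix metalloproteinases and 0.14 for the p53 targets, and single members such as ANKRD52 at -1.81 lie far from their list.

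The hairpin sublines share no array with the scrambled subline, so their responses can be set beside it. The responses are not independent, because the fit over all 6 groups takes its spread from the scrambled arrays too. Genes called with that spread tend to have scrambled replicates that lie close. This can by itself raise the shares without overlap given below. Across genes, which are not independent replicates, the scrambled change and the mean hairpin change had r = 0.0539 and rho = 0.0331, and all values come from 1 normalisation. The mean hairpin response held 308 genes past the threshold, 2.76% of those tested. Of the 196 that fell there (1.76%), 122 were also below 0 in the scrambled subline (62.2%; all genes, 50.9%), and in 70 the scrambled groups did not overlap on the lower side (35.7%; all genes, 20.1%). Their scrambled median was -0.08 and their hairpin median -0.65, and 0 passed in the scrambled subline. Of the 112 that rose (1%), 66 were above 0 in the scrambled subline (58.9%), in 32 its groups did not overlap on the higher side (28.6%; all genes, 18.2%), and the medians were 0.05 and 0.59.

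The difference between the scrambled change and the mean hairpin change passed for 30 genes (0.269%). For 4 of them (0.0358%) the scrambled change was the lower: ANKRD52 with a difference of -1.94 ± 0.23, PLPPR2 with -1.67, MAPRE3 with -1.48 and GALNT1 with -1.20. For 26 (0.233%) the scrambled change was the higher, and 23 of these had passed in the mean hairpin response. The largest were AKR1C3, a reductase that makes testosterone, with a difference of 2.57, ASB9, a ubiquitin ligase adaptor, 2.03, the membrane mucin MUC13, 1.96, the adhesion protein NFASC, 1.79, the RNA-binding protein ELAVL1, 1.70, and the lactonase PON1, 1.57. Their scrambled changes were -0.15 for AKR1C3, 0.01 for ASB9, -0.37 for MUC13, 0.27 for NFASC, 0.30 for ELAVL1 and 0.19 for PON1, none past the threshold. Some of the 26 had their larger change in the scrambled subline: SCARNA23 differed by 1.54 (adjusted p = 0.0153), RAB8B by 1.07 (adjusted p = 0.0243) and PCDH10 by 0.95 (adjusted p = 0.0331). MAPRE3, SCARNA23 and PCDH10 were each undetected in a scrambled group, so their differences are not exact. With arrays scaled to the same median the split was 13 higher and 42 lower in place of 26 and 4. The total of 30 was 14 without doxycycline replicate 1 of the scrambled subline and 15 without replicate 2 of its cells lacking doxycycline.

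The mean of the 3 responses, in which the scrambled arrays count for 1 part in 3, passed for 201 genes (1.80%), 62 higher (0.555%) and 139 lower (1.25%). Leaving out each array gave 109 to 167 genes, with 131 without replicate 2 of the scrambled cells lacking doxycycline. In 170 of the 201 the 3 sublines had the same sign, which choosing genes by the mean favours, against 3169 of all genes (28.4%). With the same sign and an unadjusted p under 0.05 in each subline there were 32 among all genes (0.287%), of which 30 were among the 201, 7 higher and 23 lower. AKR1C2 was among the 30. ALB, which encodes albumin, read 11.02 and 11.10 on the scrambled arrays with doxycycline, against 11.60 and 11.68 without it, a change of -0.58 beside -1.69 and -1.34 in the hairpin sublines. HGD, an enzyme of tyrosine breakdown, stood at -0.79 beside -1.17 and -1.22, and VIL1 at -0.64 beside -0.63 and -1.24. In some genes the scrambled change was as large as the hairpin changes. COLCA1 read 5.80 and 5.62 with doxycycline, against 6.64 and 6.54 without it, a change of -0.88 beside -0.81 and -0.92, and the scrambled change differed from the hairpin mean by -0.02 ± 0.22. MMP16 read 6.05 and 6.13 with doxycycline, against 6.79 and 6.77 without it, a change of -0.69 beside -0.65 and -0.58, with a difference of -0.07 ± 0.20. SLITRK5 stood at -0.88 beside -0.69 and -1.18. COXFA4L2, a hypoxia-linked relative of a respiratory chain subunit, stood at -1.11 beside -1.63 and -1.56, but its arrays without doxycycline read 8.57 and 7.32. On the higher side RCBTB2 read 6.20 and 6.16 with doxycycline, against 5.80 and 5.61 without it, a change of 0.48 beside 1.05 and 0.80.

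**Figure D4:**
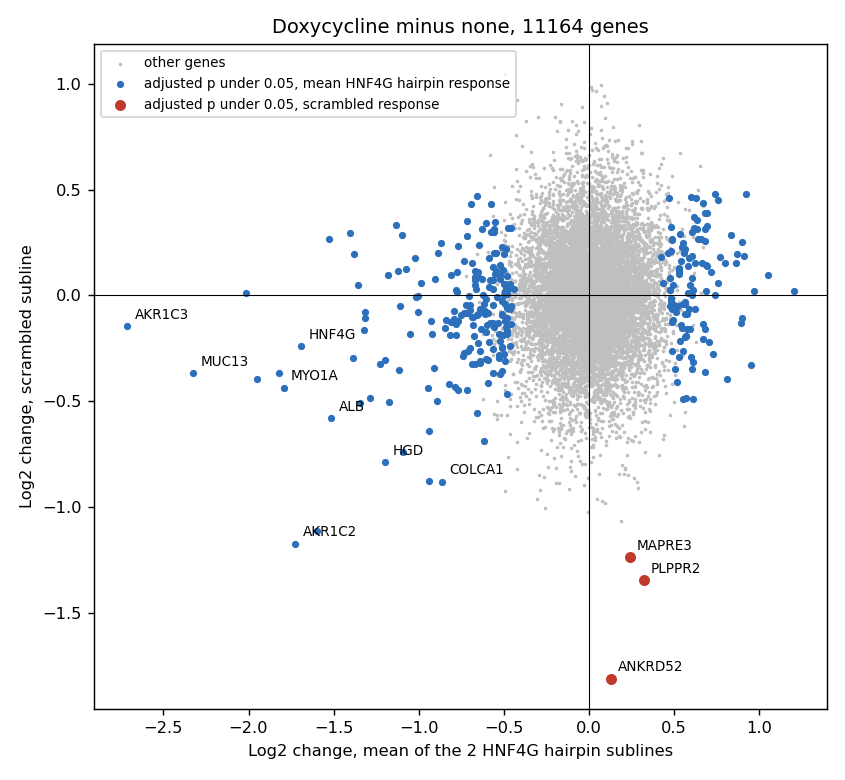
Log2 change with doxycycline in the scrambled subline (vertical) against the mean of the changes in the HNF4Gsh1 and HNF4Gsh2 sublines (horizontal) for 11164 genes; blue genes passed an adjusted p of 0.05 in the mean hairpin response and red genes in the scrambled response. ANKRD52, PLPPR2 and MAPRE3 lie low on the vertical axis with hairpin means above 0, AKR1C3 and MUC13 lie far left near 0 on the vertical axis, and AKR1C2 is low on both.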

How the data were processed

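Per the labels, total RNA was labelled and hybridised to Illumina bead arrays; BeadStudio and Partek are named in the submitters' processing notes, without versions. The authors deposited a non-normalized table of probe intensity with a detection p-value per array, which was analysed here, and a table of log2 values that share 1 quantile-normalised distribution, used as an alternative. After 1479 blank lines were left out, neqc of limma 3.58.1 (R 4.3.3; normexp by detection p, offset 16, quantile, log2) was run over the 12 arrays. Symbols came from the platform annotation, updated by gene ID: 30113 of 47323 probes had 1 symbol, 8 several and 17202 were not listed. A fit over 6 groups with lmFit and eBayes (6 residual and 7.91 prior degrees of freedom) gave each contrast. Genes were named by rule: all past 0.05, the 12 smallest p each way, up to 6 each way with the largest change past the threshold in the difference and in the mean response, 3 per list, 5 each way detected in 1 group only, and controls. Members and lists were chosen with earlier results of these data known. ALB, COLCA1, HGD, PPP6C, DYNLRB2, SELENOS, DCN, ACTA2 and HBA1 fall outside the rule and were named after their values were seen. Alternatives covered background, scaling, filters, probes, moderation, weights, blocks and leaving out each array. The number of arrays limits precision.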

Additional observations from a re-analysis of the deposited data

Results flagged for a closer look

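The 10 genes given here had a response in the scrambled subline that differed from the mean response of the HNF4G hairpin sublines by a test of the difference itself (limma, adjusted over 11164 genes). The difference, scrambled minus hairpin mean, was -1.94 for ANKRD52, -1.67 for PLPPR2, -1.48 for MAPRE3 and -1.20 for GALNT1. It was 2.57 for AKR1C3, 2.03 for ASB9, 1.96 for MUC13, 1.79 for NFASC, 1.70 for ELAVL1 and 1.57 for PON1. For ELAVL1 the 2 hairpins themselves stood apart, at -0.05 with HNF4Gsh1 and -2.75 with HNF4Gsh2.

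Probes outside the gene-level test also held signal. When all 19172 kept probes were tested as probes, an alternative chosen after seeing the data, 6 passed (0.0313%), 1 higher and 5 lower. A second probe of DYNLRB1 read 8.98 and 9.08 with doxycycline, against 10.37 and 10.36 without it, a change of -1.34 (adjusted p = 0.0172, limma), and the gene's other 2 probes both stood at -0.77. Its paralog DYNLRB2 stood at -0.90. A probe without a single gene name, ILMN_1741214, read 7.25 and 7.11 with doxycycline, against 8.46 and 8.48 without it, a change of -1.29 (adjusted p = 0.00753, limma). A second probe of SELENOS, a selenoprotein of the endoplasmic reticulum, read 5.98 and 6.07 with doxycycline, against 4.65 and 4.55 without it, a change of 1.43 (adjusted p = 0.0180, limma). It was detected on both doxycycline arrays and on neither of the others, while the brightest probe of that gene stood at 0.25 and another at 0.05.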

How the results depend on the processing

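The count of 3 genes in the scrambled subline moved with most settings. It was 18 with no background correction, 22 with arrays scaled to the same median, 26 with the deposited normalized values, 1 with no detection filter, 18 among genes detected on all 12 arrays, which leave the 3 out, 8 with the mean of all probes, 36 with an intensity trend, 9 among genes detected on 2 or more of the 4 arrays, 0 with the 4 arrays alone in the fit, 1 with them alone in normalisation too, and 6 with all probes tested as probes. Leaving out each of the 12 arrays gave 0 to 5 calls for the scrambled response, 14 to 37 for the difference and 109 to 167 for the mean of the 3 responses. The scrambled count was 1 without doxycycline replicate 1, 4 without doxycycline replicate 2, 5 without replicate 1 and 0 without replicate 2 of the cells lacking doxycycline, and 1 without any 1 array of the 4 of induced HNF4G hairpins. The difference count of 30 was 117, 55, 125, 57 and 128 with no background correction, median scaling, deposited values, detection on all 12 arrays and an intensity trend. Its split of 26 higher and 4 lower became 13 and 42 with median scaling. Without doxycycline replicate 1 it was 14, and without replicate 2 of the cells lacking doxycycline 15. The mean count of 201 was 386, 397 and 394 with no background correction, deposited values and the trend. ANKRD52 kept its call in 11 of 12 fits that left out an array, MAPRE3 and PLPPR2 in 4 of 12 each. The sign reversed for TMPRSS2 (-0.0866), ACTB (-0.0298) and B2M (-0.0926) with median scaling and for ATF4 (0.0226) and B2M (-0.0676) with the mean of probes. With an array left out GRHL2 ranged from -0.00815 to 0.573 and DSC3 from -0.496 to 0.235. None of these passed. Replicate numbers do not pair the samples (correlations of deviations -0.0318 to 0.0677), and with the replicate block the counts were 2, 36 and 181. Array weights gave 2 for the scrambled response. Except where construction shows it, the cause of these moves was not tested.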
